A study of Homo sapiens with 26 samples.

Results

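The genes described here code for proteins that build, load, protect and repair the DNA replication fork during S phase. They were taken by gene symbol from a list of 46, and 44 of these had a probe set among the 17687 genes measured; BRCA2 and FANCD2 were not analysed here. By role the 44 comprised 4 GINS subunits, 10 subunits of the replicative polymerases and primase, 7 genes of PCNA and its loaders, 3 RPA subunits and 4 nucleases and ligases of strand maturation and resection. The others were 4 fork protection and checkpoint genes, 3 histone chaperones, 2 S-phase repair genes, 4 further S-phase chromatin genes and 3 genes of origin recognition and firing.

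The 26 microarrays, each with 1 biotin-labelled RNA, came from 3 established human lung cancer lines: NCI-H1975 (H1975), labelled lung adenocarcinoma, and A549 and NCI-H1299 (H1299), both labelled lung carcinoma. Cells in RPMI1640 medium with glutamine and serum were given Omomyc at 12.8 µM, or phosphate-buffered saline (PBS) as the vehicle, a night after they were plated. Omomyc is a small protein derived from the part of the transcription factor MYC that pairs with MAX and binds DNA, and it keeps MYC from both. H1975 had 5 Omomyc and 4 PBS arrays, A549 had 3 Omomyc and 4 PBS arrays, and H1299 had 5 arrays of each. The sources used here give no exposure time. PBS was the only control, so what is particular to Omomyc cannot be told apart from what any protein in the medium would do. The comparison asks how the transcripts of the replication fork differed between Omomyc and PBS in each line.

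At a replication fork the MCM ring, CDC45 and the GINS complex unwind DNA, primase and DNA polymerase alpha start each strand, and polymerases delta and epsilon extend it. The clamp PCNA, loaded by the RFC complex, holds polymerases on DNA, RPA covers single strands, and a checkpoint that runs through CLSPN and CHEK1 slows the cycle when forks stall. Many genes of these proteins are transcribed at the entry to S phase under E2F factors, and their transcripts are high in dividing tumour cells.

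Levels below are the deposited log2 values, and a change is the Omomyc mean minus the PBS mean, a log2 fold change, with its standard error from the limma fit after ±. A gene is said to rise or fall only at a Benjamini-Hochberg adjusted p under 0.05 over all 17687 genes. Probe sets differ in brightness, so levels are compared between arrays for the same gene and never between genes. Mean values of the 23 background probe sets lay between 2.34 and 6.69, so a fold change whose lower group lies at or under 6.69 is uncertain in size. The arrays fell into 3 sets by the distribution of their values, called normalization runs here, with 9, 10 and 7 arrays, and no A549 Omomyc array lay in the third. The run made up 97.3% of the residuals' first principal component, and counts from a fit that blocks on it are given too. The sets were drawn from these same values with their number fixed at 3, so that share is no separate evidence for them. Aldo-keto reductase AKR1B10, known to be high in A549, was at 17.10 ± 0.22 (SD, n = 4) in PBS arrays of A549, against 3.75 ± 0.27 (n = 4) in H1975 and 3.002 ± 0.41 (n = 5) in H1299. The epithelial markers CDH1 in H1975 and H1299, and EPCAM and KRT19 in H1299, were within the range of background probe sets, while KRT8 and KRT18 were above it in all lines. The leukocyte and endothelial markers PTPRC, CD3E, PECAM1 and CDH5 lay within the background range in every group, and the fibroblast marker COL1A1 was at 9.44, 5.90 and 5.58 in PBS arrays of H1975, A549 and H1299. None of these 5 genes was called in any line. Of the 8 genes that mark the lines and their epithelial origin, AKR1B10, AKR1C1 and KRT8 fell in H1975 and none was called in A549 or H1299. AKR1B10 lay within the background range in every H1975 array, so its fall there is uncertain in size.

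Replication fork genes were lower with Omomyc in H1975 and H1299, and no member passed the test in A549. In H1975, 17 of the 44 fell and 0 rose, where 6.28% of all genes fell and 5.57% rose, 11.8% in all. In H1299, 24 of the 44 fell and 0 rose, where 4.52% of all genes fell and 4.35% rose, 8.87% in all. In A549, limma called 0 of the 44, where 0.277% of all genes fell and 0.916% rose, 1.19% in all. At an unadjusted p under 0.05 the members lower with Omomyc were 21 in H1975, 6 in A549 and 31 in H1299, where 11.7%, 3.19% and 9.72% of all genes were lower, and 0 members were higher in any line. Whether fewer cells were in S phase or each cell held less of these transcripts cannot be told apart in RNA from whole cultures.

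The median log2 fold change over the 44 was -0.56 in H1975, -0.27 in A549 and -0.90 in H1299, against 0.0038, 0.042 and 0.0018 over all genes. Leaving out 1 array moved the A549 median to between -0.41 and -0.17. Values were below 0 for 40 members in H1975, 35 in A549 and 39 in H1299. Every Omomyc array was below every PBS array for 12 members in H1975, 8 in A549 and 21 in H1299, where 5.35%, 3.6% and 4.09% of all genes showed this. The mean level over the 44 lay between 7.28 and 8.40 in the Omomyc arrays of H1975 and between 8.40 and 8.96 in its PBS arrays. In A549 it lay between 7.75 and 8.19 with Omomyc and between 7.79 and 8.42 with PBS, and in H1299 between 7.67 and 8.32 with Omomyc and between 8.64 and 9.31 with PBS. The groups overlapped in A549 and stood clear of each other in H1299, and in H1975 they met at 8.40. The A549 PBS array at 7.79 lay in run 3, which held no A549 Omomyc array. Within run 1 the A549 arrays were at 7.75 and 7.75 with Omomyc and 8.25 and 8.16 with PBS, and within run 2 at 8.19 and 8.42. In H1975 the arrays that met were an Omomyc array of run 2 and a PBS array of run 3. With the run as a block, 20 members fell in H1975, 3 in A549 and 30 in H1299, and 0 rose, where 9.85%, 1.13% and 8.17% of all genes fell. Of the called members the Omomyc mean lay at or under the highest background mean for 8 of 17 in H1975 and 10 of 24 in H1299. In H1975 these were GINS2, GINS4, DSCC1, CLSPN, BRCA1, WDR76, FAM111B and ORC6. In H1299 they were GINS2, GINS3, GINS4, POLD1, POLE, POLE2, EXO1, BRCA1, FAM111B and ORC6. For DSCC1 in H1975 and GINS4, POLD1, POLE and ORC6 in H1299 the PBS mean lay there too. The sizes of all these falls are uncertain.

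**Figure D1:**
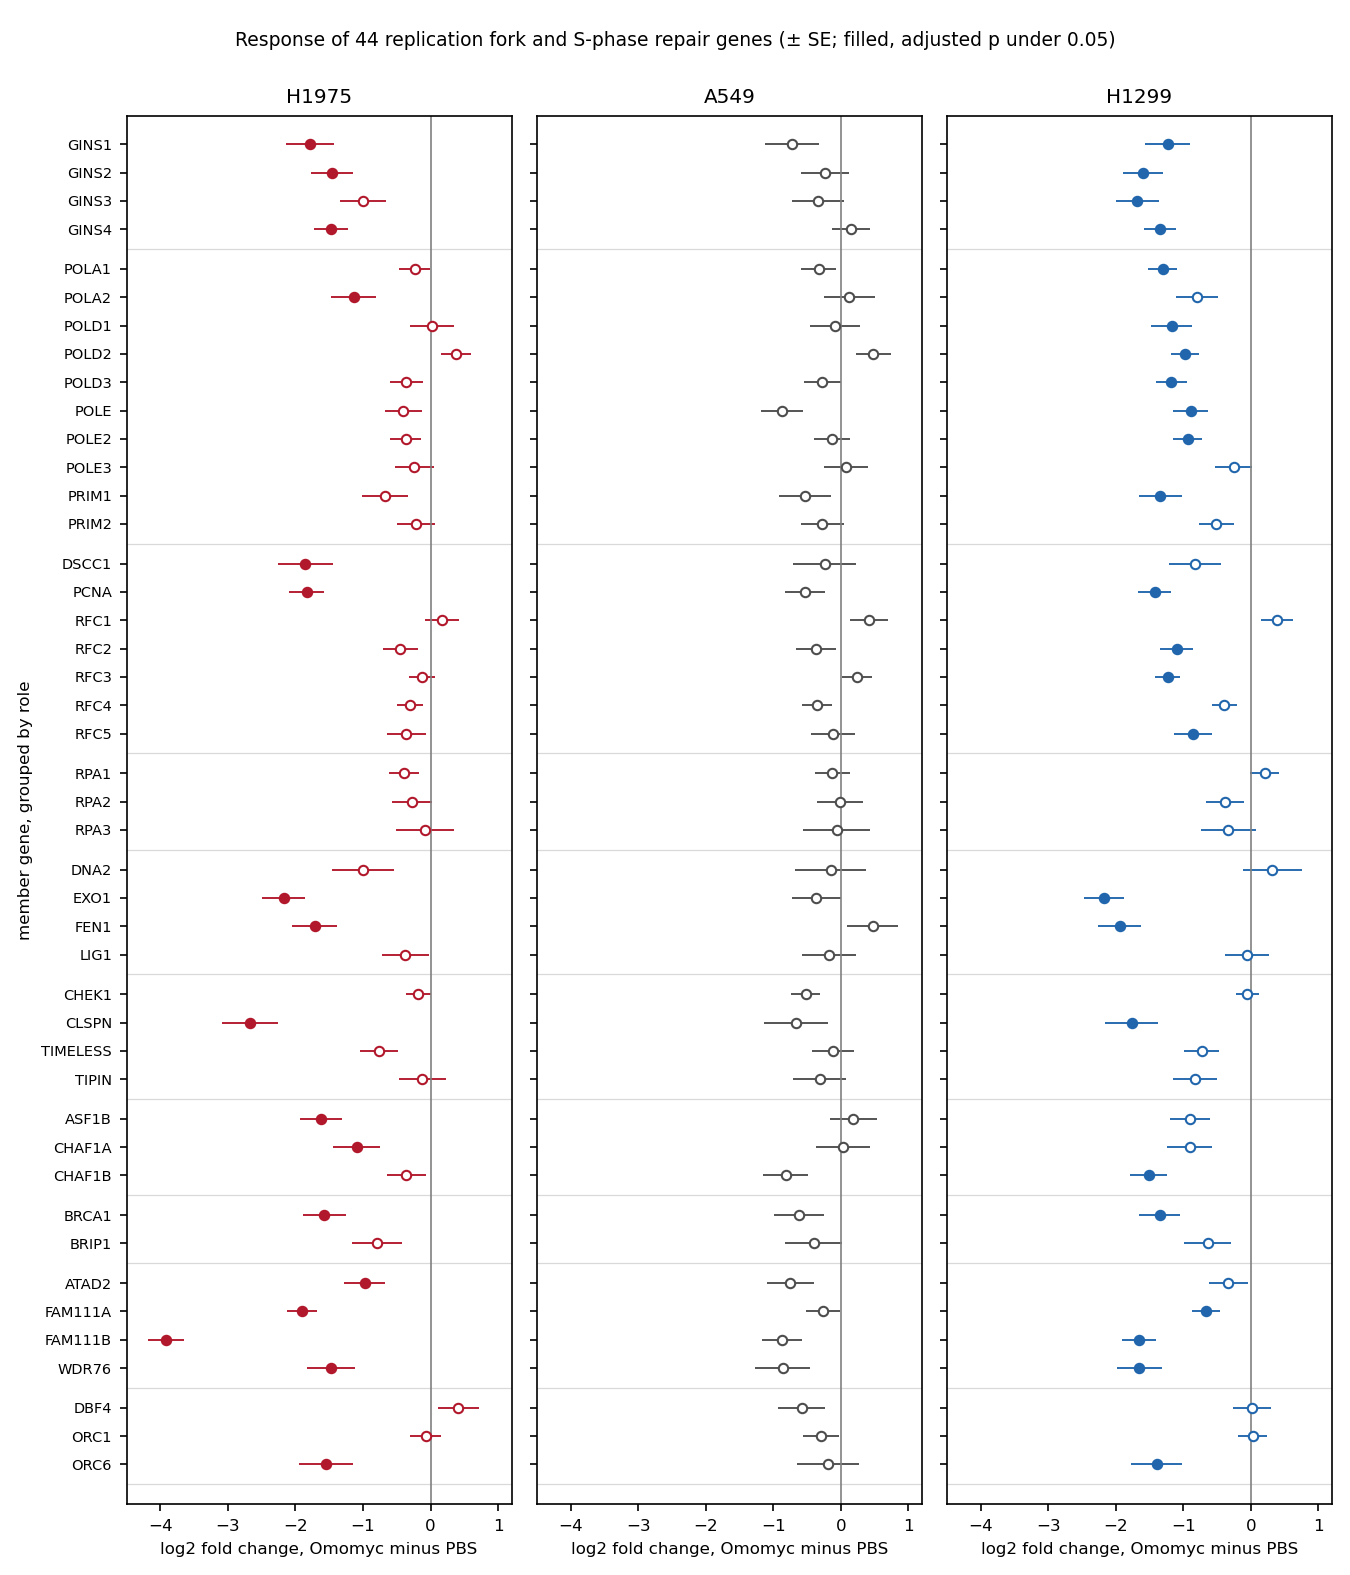
Log2 fold change (Omomyc minus PBS, x axis) of the 44 genes, grouped by role down the page, in H1975, A549 and H1299; bars are the standard error of the fit and filled points passed an adjusted p under 0.05. Filled points, all left of 0, number 17 in H1975, 0 in A549 and 24 in H1299.

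Promoter sequence was read for the members because many of them move together and E2F factors are known regulators of such genes. RefSeq sequences (GRCh38.p14, 250 bases before to 50 bases from each annotated start) matched 35 of the 44 members, with 46 starts. No promoter was read for GINS4, POLD3, DSCC1, RPA2, RPA3, DNA2, ATAD2, WDR76 or FAM111B. The E2F words TTTCCCGC, TTTCGCGC, TTTGCCGC and TTTGGCGC, searched on both strands, stood in the promoters of 14 of the 35, or 40%, against 5.35% of the 14250 genes of the array with a promoter in the table. The E-box CACGTG, the letters bound by MYC with MAX, stood in 14.3% of the members and 10.8% of the array's genes. For TTTGAA, the core of the cell cycle homology region of G2 and mitosis genes, the shares were 14.3% and 15.9%, and for CCAAT 60% and 42.3%, each on both strands. Shown here are the 6 members with an E2F word that fell in both H1975 and H1299, and RFC3, added after its values were seen, which fell in H1299 and differed between the lines. Each line runs 5′ to 3′ on the gene's strand over 120 bases, 90 before the start site and 30 from it, with the E2F word in capitals.
GINS1 (chr20:25407583-25407702, plus strand): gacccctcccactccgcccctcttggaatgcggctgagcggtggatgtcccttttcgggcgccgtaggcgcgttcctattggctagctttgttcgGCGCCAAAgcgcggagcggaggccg
GINS2 (chr16:85688925-85689044, minus strand): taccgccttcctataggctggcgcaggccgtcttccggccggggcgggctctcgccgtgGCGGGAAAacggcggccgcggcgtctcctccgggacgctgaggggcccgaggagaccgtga
PCNA (chr20:5126593-5126712, minus strand): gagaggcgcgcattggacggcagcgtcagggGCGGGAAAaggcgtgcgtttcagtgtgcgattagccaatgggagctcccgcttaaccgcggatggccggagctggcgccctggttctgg
CLSPN (chr1:35769949-35770068, minus strand): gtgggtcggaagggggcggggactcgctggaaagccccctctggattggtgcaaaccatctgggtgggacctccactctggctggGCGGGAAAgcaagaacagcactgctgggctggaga
EXO1 (chr1:241848114-241848233, plus strand): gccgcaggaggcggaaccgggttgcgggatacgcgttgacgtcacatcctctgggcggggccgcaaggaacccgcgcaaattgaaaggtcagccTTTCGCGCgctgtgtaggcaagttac
FAM111A (chr11:59144772-59144891, plus strand): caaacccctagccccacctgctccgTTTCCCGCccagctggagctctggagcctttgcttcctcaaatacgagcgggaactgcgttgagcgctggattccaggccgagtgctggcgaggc
RFC3 (chr13:33818059-33818178, plus strand): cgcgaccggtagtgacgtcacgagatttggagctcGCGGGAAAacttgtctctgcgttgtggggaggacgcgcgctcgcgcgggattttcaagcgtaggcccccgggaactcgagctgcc

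EXO1 and FAM111A hold the word on the strand of the gene and the other members shown hold it on the opposite strand, as GCGGGAAA in GINS2, PCNA, CLSPN and RFC3 and as GCGCCAAA in GINS1. In all, the 14 members held 15 words, 5 on the gene's strand and 10 on the other, and 13 began within 70 bases of the start site. The words of both strands in TIPIN overlap each other, and no E2F word overlapped a match of the other motifs. Of the 14 members with a word 7 fell in H1975, 11 in H1299 and 0 in A549, and their median log2 fold changes were -1.07, -1.24 and -0.32. Of the 21 matched members without one, 5 fell in H1975, 9 in H1299 and 0 in A549, with medians of -0.36, -0.86 and -0.19. In A549, POLE alone of the members with a word had an unadjusted p under 0.05. CHAF1B and CHEK1 had such a p there without a word. ATAD2, WDR76 and FAM111B also had such a p, but no promoter was read for them. A match is a description of letters and not of a bound site, and a member without one lacks only these letters in this window.

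**Figure D2:**
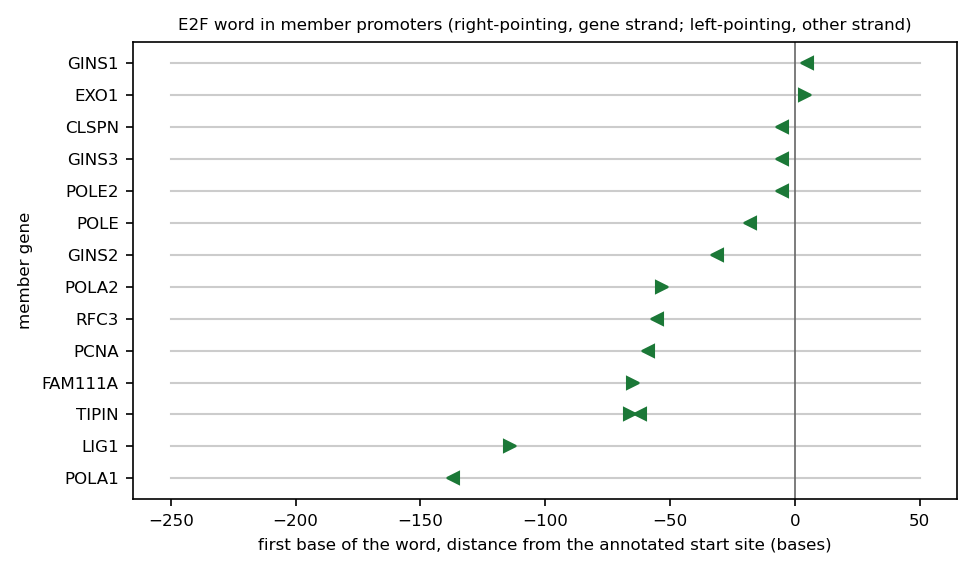
Position of each E2F word in the promoters of the 14 members that hold one, as the distance in bases of its first base from the annotated start site (x axis, negative before the start); right-pointing marks are on the gene's strand and left-pointing marks on the other. The words of 13 marks begin within 70 bases of the start, and those of LIG1 and POLA1 lie farther upstream.

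The GINS complex fell as a whole in H1299 and by 3 of its 4 subunits in H1975. GINS1 fell by 1.78 ± 0.35 (adjusted p = 0.000739) in H1975 and fell by 1.23 ± 0.33 (adjusted p = 0.015) in H1299. GINS2 fell by 1.46 ± 0.31 (adjusted p = 0.00177) and fell by 1.60 ± 0.29 (adjusted p = 0.000536) in these lines. GINS4, known in yeast as Sld5, was at 6.09, 6.17, 6.72, 7.004 and 6.64 in the 5 Omomyc arrays of H1975 and at 8.07, 8.18, 7.95 and 7.79 in the 4 PBS arrays. All Omomyc arrays were below all PBS arrays, and GINS4 fell by 1.47 ± 0.25 (adjusted p = 0.000147) in H1975 and fell by 1.35 ± 0.24 (adjusted p = 0.000324) in H1299. GINS3 fell by 1.68 ± 0.32 (adjusted p = 8e-04) in H1299, and in H1975 its value was -1.003 ± 0.34 (adjusted p = 0.0546), called once the run was blocked (adjusted p = 0.000585). None of the 4 was called in A549 by limma, nor at an unadjusted p under 0.05, and their changes ran from -0.71 for GINS1 to 0.15 for GINS4. The Omomyc means of GINS2 and GINS4 in both lines, and of GINS3 in H1299, were no higher than the brightest background mean. In H1299 the PBS mean of GINS4, 6.51, was also under that background mean.

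Subunits of the replicative polymerases fell in H1299 and, with 1 exception, not in H1975. In H1299, 7 of 10 fell, spread over polymerase alpha-primase (POLA1, PRIM1), polymerase delta (POLD1, POLD2, POLD3) and polymerase epsilon (POLE, POLE2). In H1975 the accessory subunit POLA2 alone passed, and fell by 1.14 ± 0.33 (adjusted p = 0.0212), a call lost in 5 of the 9 fits that left out 1 array (adjusted p 0.0504 to 0.0833). POLA2 in H1299 was at -0.80 ± 0.31 (adjusted p = 0.121) and was called there under the run block (adjusted p = 0.00947), with the replicate block (adjusted p = 0.0213), with quantile normalization (adjusted p = 0.0266) and with centring (adjusted p = 0.0318). POLA1, the catalytic subunit of polymerase alpha, was at 7.59, 7.41, 7.78, 6.97 and 7.31 in the 5 Omomyc arrays of H1299 and at 9.47, 8.55, 8.50, 8.71 and 8.35 in the 5 PBS arrays. No Omomyc array reached the lowest PBS array, and POLA1 fell by 1.30 ± 0.21 (adjusted p = 0.000145). In H1975 POLA1 was at -0.24 ± 0.23 (adjusted p = 0.652) and in A549 at -0.33 ± 0.26 (adjusted p = 0.865). PRIM1, the catalytic subunit of primase, fell by 1.34 ± 0.32 (adjusted p = 0.00538) in H1299, while PRIM2, its partner, was at -0.51 ± 0.26 (adjusted p = 0.297).

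POLD2, an accessory subunit of polymerase delta, was at 11.84, 12.32, 12.34, 12.09 and 12.35 in the Omomyc arrays of H1299 and at 13.09, 13.40, 13.62, 12.77 and 12.96 in its PBS arrays. In H1975 it was at 13.14, 12.60, 13.60, 13.16 and 12.77 with Omomyc and at 12.93, 12.89, 12.49 and 12.42 with PBS, and in A549 at 11.83, 11.70 and 12.26 with Omomyc and at 11.46, 11.31, 11.89 and 11.11 with PBS. Omomyc arrays lay below all PBS arrays in H1299 and overlapped them in the other lines, with a higher Omomyc mean there. POLD2 fell by 0.98 ± 0.21 (adjusted p = 0.00257) in H1299 and was at 0.37 ± 0.22 (adjusted p = 0.364) in H1975 and 0.48 ± 0.26 (adjusted p = 0.646) in A549. POLD3, another accessory subunit, fell by 1.18 ± 0.23 (adjusted p = 0.000899) in H1299, and the catalytic subunit POLD1 fell by 1.17 ± 0.31 (adjusted p = 0.0124), with both POLD1 means at background level and the call lost without Omomyc replicate 2 (adjusted p = 0.0516).

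POLE, the catalytic subunit of polymerase epsilon, was the polymerase gene with the smallest p in A549, at 5.80, 5.60 and 5.52 in the 3 Omomyc arrays and 6.45, 6.47, 6.82 and 6.31 in the 4 PBS arrays. All 3 Omomyc arrays were below all PBS arrays, and the change was -0.88 ± 0.31 (adjusted p = 0.259), called once the run was blocked (adjusted p = 0.00432), with quantile normalization (adjusted p = 0.0121) and with each array centred on its median (adjusted p = 0.0264). Both A549 means of POLE lie under the highest background mean, as do both of its H1299 means. In H1299 POLE fell by 0.89 ± 0.26 (adjusted p = 0.026), a call lost in 6 of the 10 fits that left out 1 array (adjusted p 0.0523 to 0.0861), and POLE2 fell by 0.94 ± 0.22 (adjusted p = 0.00437). POLE3, a histone-fold subunit, was called in no line, with values from -0.26 to 0.08.

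PCNA fell in H1975 and H1299, while of its loader RFC no subunit passed the test in H1975 and 3 did in H1299. PCNA, the sliding clamp, was at 10.04, 9.36, 10.34, 10.35 and 9.04 in the Omomyc arrays of H1975 and at 11.84, 11.55, 11.47 and 11.75 in its PBS arrays. In H1299 it was at 8.40, 8.34, 8.18, 7.73 and 8.32 with Omomyc and 10.04, 9.91, 9.89, 8.93 and 9.32 with PBS. Groups did not overlap in either line, and PCNA fell by 1.83 ± 0.26 (adjusted p = 1.2e-05) in H1975 and fell by 1.42 ± 0.24 (adjusted p = 0.000243) in H1299. In A549 the 3 Omomyc arrays were at 11.70, 11.71 and 11.84 and the 4 PBS arrays at 12.76, 12.12, 12.12 and 12.12, a change of -0.53 ± 0.30 (adjusted p = 0.682). These A549 groups did not overlap either, and 1 PBS array at 12.76 stood apart from the other PBS arrays, at 12.12 each.

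Of the 5 RFC subunits, RFC2, RFC3 and RFC5 fell in H1299. None of the 5 was called in H1975 or A549, where none had an unadjusted p under 0.05 either. RFC3 was at 10.02, 9.94, 9.90, 9.76 and 9.43 in the Omomyc arrays of H1299 and at 11.27, 11.02, 10.90, 11.11 and 10.92 in its PBS arrays. In H1975 it was at 8.32, 8.30, 8.29, 8.19 and 7.76 with Omomyc and 8.36, 8.54, 8.18 and 8.12 with PBS, and in A549 at 10.26, 10.17 and 9.86 with Omomyc and 10.27, 9.96, 9.84 and 9.34 with PBS. The groups parted in H1299, where RFC3 fell by 1.24 ± 0.18 (adjusted p = 3.37e-05). They overlapped in the other lines, with a change of -0.13 ± 0.19 (adjusted p = 0.811) in H1975 and of 0.24 ± 0.22 (adjusted p = 0.889) in A549. RFC2 fell by 1.10 ± 0.25 (adjusted p = 0.00395) in H1299 and RFC5 fell by 0.86 ± 0.27 (adjusted p = 0.0478), and that RFC5 call was lost in 7 of the 10 fits that left out 1 array (adjusted p 0.0639 to 0.147). The large subunit RFC1 was at 0.17, 0.42 and 0.39 in H1975, A549 and H1299, and RFC4 at -0.31, -0.35 and -0.39. For RFC4 in H1299 all Omomyc arrays were below all PBS arrays, with an unadjusted p of 0.0404 and an adjusted p of 0.227. DSCC1, a subunit of an alternative clamp loader that acts in sister chromatid cohesion, fell by 1.85 ± 0.41 (adjusted p = 0.00236) in H1975, where both of its means were at background level, and was at -0.83 ± 0.39 (adjusted p = 0.229) in H1299.

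RPA genes, whose products coat single-stranded DNA, were called in no line, with 0 of 3 also at an unadjusted p under 0.05. RPA1, RPA2 and RPA3 were at -0.39, -0.27 and -0.08 in H1975, at -0.12, -0.02 and -0.06 in A549 and at 0.20, -0.38 and -0.33 in H1299. The 95% intervals were -0.86 to 0.07 for RPA1 in H1975 and -0.23 to 0.64 in H1299, so a fall of 1 or more lies outside both. For RPA3 they were -0.96 to 0.81 in H1975 and -1.17 to 0.50 in H1299, which leaves a fall of that size within reach in H1299.

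The nucleases EXO1 and FEN1 fell in H1975 and H1299, while LIG1, the ligase that joins the processed fragments, and the nuclease DNA2 were called in no line. EXO1, an exonuclease of mismatch repair and end resection, was at 6.67, 6.60, 7.89, 6.65 and 5.83 in the Omomyc arrays of H1975 and at 9.001, 9.26, 9.23 and 8.12 in its PBS arrays. In H1299 it was at 6.77, 7.14, 6.61, 6.34 and 5.68 with Omomyc and at 8.51, 9.01, 8.95, 8.57 and 8.36 with PBS. The groups were apart in both lines, and EXO1 fell by 2.17 ± 0.31 (adjusted p = 1.55e-05) in H1975 and fell by 2.17 ± 0.30 (adjusted p = 1.28e-05) in H1299, against -0.36 ± 0.36 (adjusted p = 0.915) in A549. Its change was below 0 within every run, at -1.97 to -2.36 in H1975 and -1.74 to -2.45 in H1299.

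FEN1, the flap endonuclease that trims Okazaki fragments, was at 9.84, 8.97, 10.22, 9.42 and 8.30 in the Omomyc arrays of H1975 and at 11.45, 11.37, 10.74 and 10.71 in its PBS arrays. In H1299 it was at 6.58, 7.999, 7.24, 6.59 and 6.79 with Omomyc and 8.89, 9.07, 9.45, 8.60 and 8.91 with PBS, and in A549 at 10.41, 10.16 and 10.84 with Omomyc and 10.30, 10.27, 10.30 and 9.13 with PBS. Groups were apart in H1975 and H1299, and in A549 they overlapped with 1 PBS array, at 9.13, apart from the other PBS arrays. FEN1 fell by 1.72 ± 0.34 (adjusted p = 0.000677) in H1975 and fell by 1.94 ± 0.32 (adjusted p = 0.000126) in H1299, and was at 0.47 ± 0.38 (adjusted p = 0.87) in A549. LIG1 had values of -0.37, -0.17 and -0.06, and DNA2 of -0.998, -0.15 and 0.32, in H1975, A549 and H1299. For DNA2 in H1975 the 95% interval, -1.95 to -0.05, did not reach 0, but its adjusted p was 0.195; both genes were at background level in every group.

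Of the fork protection and checkpoint genes CLSPN alone was called, in H1975 and H1299. CLSPN, the adaptor through which ATR activates CHEK1, was at 6.49, 5.31, 7.08, 7.02 and 4.71 in the Omomyc arrays of H1975 and at 8.47, 9.04, 9.54 and 8.12 in its PBS arrays. No Omomyc array reached the lowest PBS array, although the Omomyc arrays spread over more than 2 log2 units. CLSPN fell by 2.67 ± 0.41 (adjusted p = 4.14e-05) in H1975 and fell by 1.77 ± 0.39 (adjusted p = 0.00307) in H1299, and was at -0.66 ± 0.47 (adjusted p = 0.827) in A549. TIMELESS, which travels with the fork, was at -0.76 ± 0.28 (adjusted p = 0.0787) in H1975 and -0.73 ± 0.26 (adjusted p = 0.0853) in H1299, and with the run as a block it was called in both (adjusted p = 0.00698 and 0.00845). TIPIN, its partner, was at -0.83 ± 0.33 (adjusted p = 0.127) in H1299, also called with that block (adjusted p = 0.00394).

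CHEK1, the checkpoint kinase itself, was called in no line. Its change was -0.18 ± 0.19 (adjusted p = 0.672) in H1975 and -0.05 ± 0.18 (adjusted p = 0.939) in H1299, with 95% intervals of -0.57 to 0.20 and -0.41 to 0.31. In A549, CHEK1 was at 9.87, 9.90 and 9.96 in the 3 Omomyc arrays and at 10.36, 10.49, 10.25 and 10.63 in the 4 PBS arrays. These groups did not overlap and the Omomyc arrays lay within 0.10 of each other, with a change of -0.52 ± 0.21 (adjusted p = 0.388) that passed an unadjusted p under 0.05 and no adjusted one.

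Among the chaperones that place histones H3 and H4 behind the fork, ASF1B and the CAF-1 subunit CHAF1A fell in H1975. The CAF-1 subunit CHAF1B fell in H1299. The difference in response between H1975 and H1299 was called for none of them (adjusted p = 0.445, 0.927 and 0.0933 for ASF1B, CHAF1A and CHAF1B). ASF1B fell by 1.63 ± 0.31 (adjusted p = 0.000548) in H1975 and was at -0.90 ± 0.29 (adjusted p = 0.0522) in H1299, with adjusted p = 0.016 under the run block. CHAF1A fell by 1.09 ± 0.35 (adjusted p = 0.0408) in H1975, a call lost in 6 of the 9 fits that left out 1 array (adjusted p 0.0563 to 0.16). In H1299 CHAF1A was at -0.91 ± 0.33 (adjusted p = 0.0958). There it was called under the run block (adjusted p = 0.00196), the replicate block (adjusted p = 0.00938), quantile normalization (adjusted p = 0.0111) and centring (adjusted p = 0.0154). CHAF1B fell by 1.51 ± 0.27 (adjusted p = 0.000435) in H1299 and was at -0.36 ± 0.29 (adjusted p = 0.565) in H1975. In A549 CHAF1B was at 7.31, 7.98 and 7.95 in the Omomyc arrays and at 8.31, 8.72, 8.67 and 8.55 in the PBS arrays. All Omomyc arrays were lower, and the change of -0.82 ± 0.33 (adjusted p = 0.382) was called once the run was blocked (adjusted p = 0.0315).

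Both S-phase repair genes measured were lower in H1975 and H1299, and of the pair BRCA1 passed the test. BRCA1, central to homologous recombination, fell by 1.57 ± 0.32 (adjusted p = 0.00118) in H1975 and fell by 1.35 ± 0.30 (adjusted p = 0.00382) in H1299, and was at -0.62 ± 0.37 (adjusted p = 0.74) in A549. Its Omomyc means in H1975 and H1299 were at background level. BRIP1, a helicase that partners BRCA1, was at -0.79 ± 0.37 (adjusted p = 0.206), -0.40 ± 0.42 (adjusted p = 0.927) and -0.64 ± 0.35 (adjusted p = 0.343) in H1975, A549 and H1299. With the run as a block BRIP1 was called in H1975 (adjusted p = 0.0163) and in H1299 (adjusted p = 0.0452).

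The further S-phase chromatin genes all fell in H1975, and FAM111B had the lowest log2 fold change of the 44 there. FAM111B, which codes for a nuclear protease, was at 4.98, 5.39, 6.11, 6.19 and 5.49 in the Omomyc arrays of H1975 and at 9.10, 9.73, 10.07 and 9.30 in its PBS arrays. In H1299 it was at 6.08, 6.26, 6.16, 5.92 and 6.05 with Omomyc and 7.88, 6.96, 7.93, 8.17 and 7.83 with PBS, and in A549 at 5.45, 5.75 and 6.46 with Omomyc and 6.85, 6.45, 6.78 and 6.96 with PBS. In H1975 the highest Omomyc array (6.19) was far below the lowest PBS array (9.10). The groups were also apart in H1299 and touched in A549, where the highest Omomyc array (6.46) was just above the lowest PBS array (6.45). FAM111B fell by 3.92 ± 0.27 (adjusted p = 2.62e-11) in H1975 and fell by 1.66 ± 0.25 (adjusted p = 4.87e-05) in H1299, and was at -0.87 ± 0.30 (adjusted p = 0.237) in A549. Within runs its change was -3.75 to -3.92 in H1975, -1.24 to -2.01 in H1299 and -0.32 to -1.04 in A549. The Omomyc means are at background level in all lines, so these sizes are uncertain.

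FAM111A, the related protease that acts at forks with PCNA, was at 8.92, 9.37, 9.09, 9.72 and 8.70 in the Omomyc arrays of H1975 and at 10.83, 11.14, 11.59 and 10.68 in its PBS arrays. In H1299 it was at 10.82, 10.51, 9.997, 10.10 and 10.16 with Omomyc and 11.25, 10.83, 11.08, 10.85 and 10.89 with PBS, and in A549 at 9.39, 9.40 and 9.47 with Omomyc and 9.34, 9.66, 9.83 and 9.88 with PBS. Groups were far apart in H1975, narrowly apart in H1299 and overlapping in A549. FAM111A fell by 1.90 ± 0.22 (adjusted p = 6e-07) in H1975 and fell by 0.66 ± 0.21 (adjusted p = 0.0427) in H1299, and was at -0.26 ± 0.25 (adjusted p = 0.911) in A549. The H1299 call was lost in 8 of the 10 fits that left out 1 array (adjusted p 0.052 to 0.119), with arrays centred on their medians (adjusted p = 0.0681) and with H1299 fitted alone (adjusted p = 0.064). FAM111A and FAM111B have a probe set each, and cross-hybridisation between them was not tested.

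WDR76, a WD40-repeat protein, and ATAD2, a bromodomain ATPase, gave 2 of the 6 smallest p among the members in A549. WDR76 was at 6.71, 5.89 and 6.72 in the 3 Omomyc arrays of A549 and at 7.40, 7.04, 7.97 and 6.79 in the 4 PBS arrays, and ATAD2 was at 7.95, 8.11 and 8.32 with Omomyc and 8.51, 8.59, 9.12 and 9.25 with PBS. Neither gene's groups overlapped, with changes of -0.86 ± 0.40 (adjusted p = 0.529) for WDR76 and -0.74 ± 0.35 (adjusted p = 0.522) for ATAD2. With the run as a block WDR76 was called in A549 (adjusted p = 0.0408) and ATAD2 was not (adjusted p = 0.178). WDR76 fell by 1.48 ± 0.35 (adjusted p = 0.00482) in H1975 and fell by 1.66 ± 0.33 (adjusted p = 0.0013) in H1299. ATAD2 fell by 0.98 ± 0.30 (adjusted p = 0.0328) in H1975, a call lost in 5 of the 9 fits that left out 1 array (adjusted p 0.0579 to 0.151), and was at -0.33 ± 0.29 (adjusted p = 0.631) in H1299.

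Of the origin genes ORC6, a subunit of the origin recognition complex, fell by 1.55 ± 0.40 (adjusted p = 0.00991) in H1975 and fell by 1.40 ± 0.38 (adjusted p = 0.0169) in H1299. The large subunit ORC1 was at -0.07, -0.30 and 0.02 in H1975, A549 and H1299. DBF4, the activator of the CDC7 kinase that fires origins, was at 0.41, -0.58 and 0.02. Neither gene was called in any line, nor at an unadjusted p under 0.05. The ORC6 call was lost without 1 H1975 array (PBS replicate 2, adjusted p = 0.0662) and without any of 3 H1299 arrays (adjusted p 0.0566 to 0.0634). The Omomyc means of ORC6 were at background level, as was its PBS mean in H1299 (6.58).

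**Figure D3:**
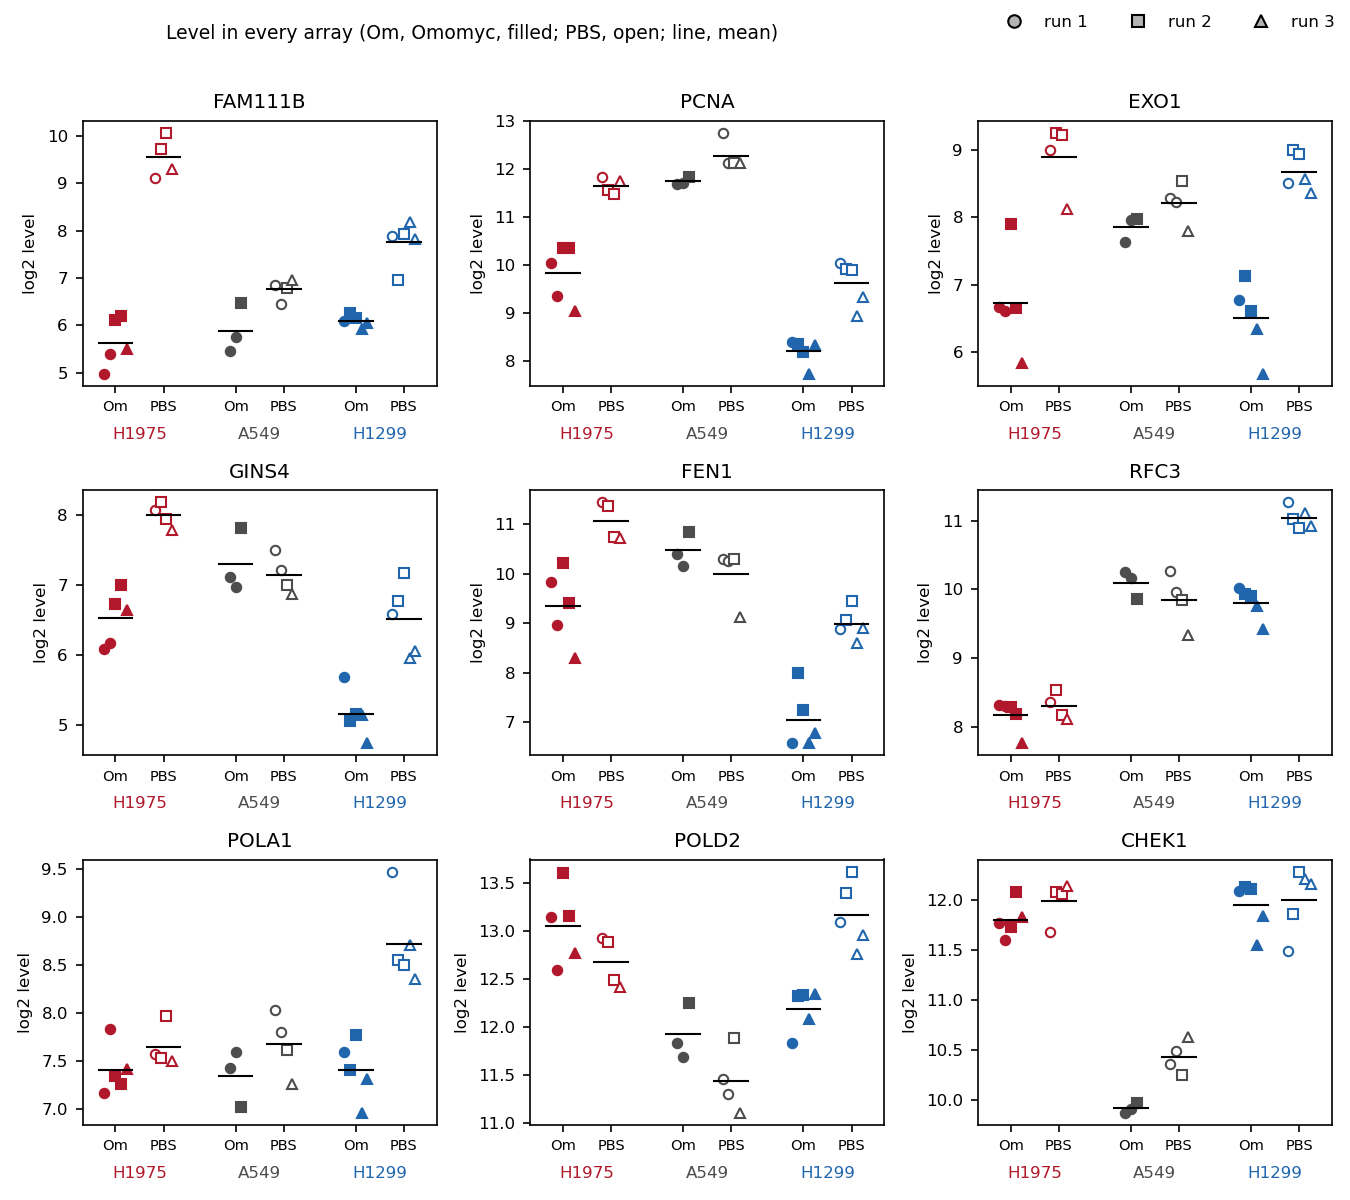
Log2 level (y axis) of 9 members in every array, Omomyc arrays (filled) left of PBS arrays (open) for each line, with marker shape for the normalization run and a line at the group mean. In H1975 the Omomyc arrays of FAM111B lie between 4.98 and 6.19 and the PBS arrays between 9.10 and 10.07, while those of RFC3 and CHEK1 overlap.

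Every member called in the full fit also had a value below 0 within each run, 17 of 17 in the 3 runs of H1975 and 24 of 24 in the 3 runs of H1299. The calls were made from these same arrays, so this describes the spread over runs and is no independent support. The median over the 44 was -0.84, -0.54 and -0.99 in runs 1, 2 and 3 of H1975, and -0.90, -1.07 and -0.94 in those of H1299. In A549 it was -0.49 in run 1 and -0.25 in run 2. Arrays of A549 and H1299 with the same number lay in the same run. With the run removed the correlation of their deviations was 0.046 or lower in every pair, so the numbered pairs are read as pairs within a run. In H1299, 30 of 44 members were lower with Omomyc in all 5 numbered pairs, where 13.1% of all genes were. In A549, 23 of 44 were lower in all 3 pairs, where 16.2% of all genes were, among them GINS1, PCNA, EXO1, CHEK1, BRCA1 and FAM111B. With the replicate number as a block, 17 members fell in H1975, 0 in A549 and 28 in H1299, where 6.28%, 0.475% and 6.45% of all genes fell, the H1299 count gaining POLA2, TIMELESS, TIPIN and CHAF1A.

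The absence of calls in A549 does not show that its members did not move. For 38 of its 44 members the 95% interval reached above 0, and for 19 it reached below -1, a fall to less than 50% of the PBS level. The other 6 members, POLE, CHAF1B, CHEK1, ATAD2, WDR76 and FAM111B, had intervals below 0 and unadjusted p under 0.05. In H1975, 6 of the 27 members not called had intervals that reached below -1, and in H1299, 9 of 20.

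Of the members that fell, 12 did so in both H1975 and H1299: GINS1, GINS2, GINS4, PCNA, FEN1, EXO1, CLSPN, BRCA1, WDR76, FAM111A, FAM111B and ORC6. These are 70.6% of the members that fell in H1975 and 50% of those that fell in H1299. Over all genes the 199 shared falls are 17.9% and 24.9% of the lines' lists. Under the run block 18 members fell in both lines, 90% and 60% of the members that fell, where 23.1% and 27.8% of the falls over all genes were shared. In H1975 and H1299, 17 and 24 of the 44 members fell, against 6.28% and 4.52% of all genes. Higher rates of falling by themselves raise the shared percentages in both fits, so these do not show closer sharing among members. POLA2, DSCC1, CHAF1A, ASF1B and ATAD2 were called in H1975 and not in H1299, which with that block held for DSCC1 and ATAD2. GINS3, POLA1, PRIM1, POLD1, POLD2, POLD3, POLE, POLE2, RFC2, RFC3, RFC5 and CHAF1B were called in H1299 and not in H1975. Across the 44 genes the changes in both lines had a Pearson correlation of 0.572 and a Spearman correlation of 0.548, against a Pearson correlation of 0.239 over all genes. The lines share no arrays but do share runs, and genes are not independent replicates, so these are descriptions.

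**Figure D4:**
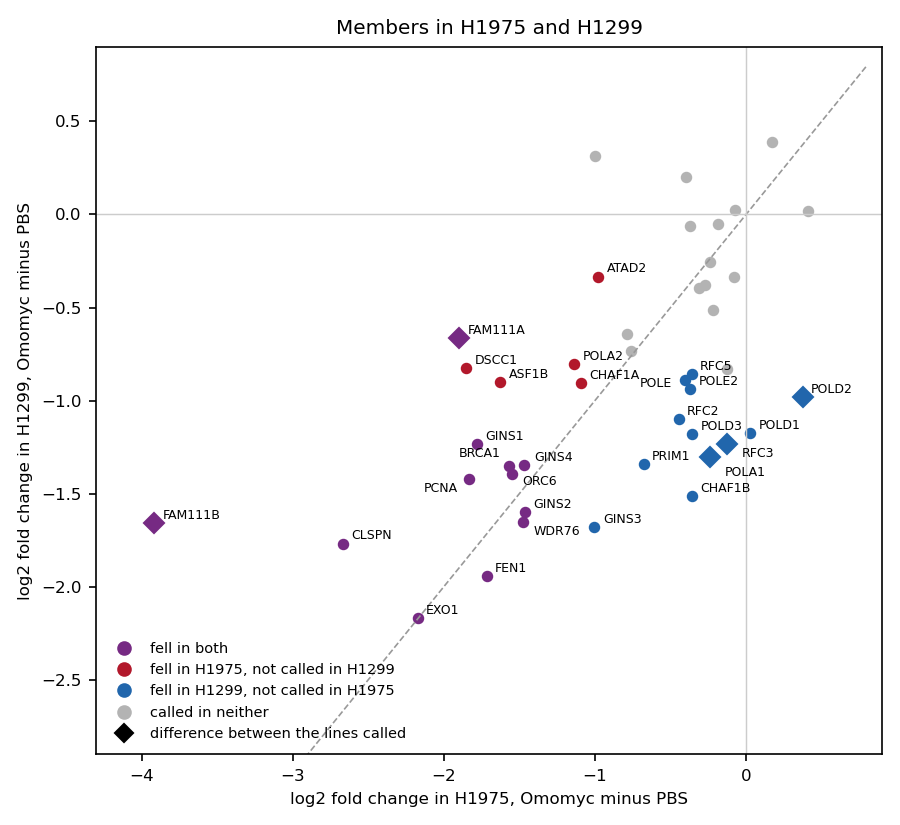
Log2 fold change of each of the 44 genes in H1975 (x axis) and H1299 (y axis), coloured by the line or lines in which it fell; diamonds mark a called difference between these lines and the dashed line marks equal change. FAM111B lies farthest left, at -3.92 and -1.66, and RFC3, POLA1 and POLD2 lie near or right of 0 in H1975 and between -1.30 and -0.98 in H1299.

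A call in 1 line and not in another is not a difference between lines, so the difference was tested itself. The moderated F test over the 3 lines called 9 of the 44, where it called 8.18% of all genes: FAM111B, RFC3, FAM111A, FEN1, POLD2, GINS4, EXO1, ASF1B and POLA1. FAM111B had the smallest adjusted p, 1.02e-05. The H1975 response minus that of A549 was -3.05 ± 0.40 (adjusted p = 1.82e-05) for FAM111B, and minus that of H1299 it was -2.26 ± 0.36 (adjusted p = 0.000144). PBS means of FAM111B were 9.55, 6.76 and 7.75 in H1975, A549 and H1299, and its Omomyc means were at background level in every line. Whether background limited the measured fall differently in each line was not tested, and the size of the differences in response is uncertain. FAM111A also had a lower response in H1975, at -1.64 ± 0.33 (adjusted p = 0.003) against A549 and -1.24 ± 0.30 (adjusted p = 0.0113) against H1299.

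RFC3, POLD2 and POLA1 differed the other way between H1975 and H1299. The H1975 response minus that of H1299 was 1.11 ± 0.26 (adjusted p = 0.009) for RFC3, 1.35 ± 0.31 (adjusted p = 0.006) for POLD2 and 1.07 ± 0.31 (adjusted p = 0.0382) for POLA1. In all, H1975 against H1299 gave 3 called members higher and 2 lower, where 2.61% and 3.09% of all genes were, 5.7% in all. The A549 response was higher than that of H1299 for RFC3, FEN1, POLD2, GINS4 and EXO1 and lower for 0 members, where 1.4% of all genes were higher and 1.07% lower, 2.47% in all; at an unadjusted p under 0.05, 13 were higher and 0 lower, where 7.1% and 5.36% of all genes were. FEN1 had the largest of these differences, 2.42 ± 0.50 (adjusted p = 0.00599).

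H1975 against A549 gave 6 members with a lower response in H1975 and 0 with a higher one, where 2.7% and 1.92% of all genes were, 4.62% in all. These were FAM111B, FAM111A, FEN1, GINS4, EXO1 and ASF1B, and at an unadjusted p under 0.05 the counts were 13 lower and 1 higher, where 9.14% and 6.72% of all genes were. FEN1 was at -2.19 ± 0.51 (adjusted p = 0.00935), EXO1 at -1.81 ± 0.48 (adjusted p = 0.023), ASF1B at -1.81 ± 0.47 (adjusted p = 0.0215) and GINS4 at -1.62 ± 0.38 (adjusted p = 0.0106). Leaving out 1 array ended the F test's call of POLA1 in 15 of 26 fits, that of ASF1B in 9 and that of GINS4 in 1, the fit without Omomyc replicate 3 of A549. The call of ASF1B was also lost with the replicate block, which gained CHAF1B, and that of POLA1 with quantile normalization, with centring and with trend and robust moderation. With the run as a block the F test called 16 members, where it called 17.4% of all genes, adding GINS2, GINS3, POLD3, PCNA, CLSPN, CHAF1B and DBF4.

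PBS levels of the members also differed between the lines, as did those of many genes. In PBS arrays 20 members were higher and 5 lower in H1975 than in A549, where 20.3% and 18% of all genes were, 38.3% in all. Against H1299, 10 were higher and 17 lower in H1975, where 21.2% and 20.8% of all genes were, 42% in all. Against H1299, 5 were higher and 22 lower in A549, where 19% and 22.5% of all genes were, 41.5% in all. The median PBS level over the 44 was 8.81 in H1975, 8.13 in A549 and 8.66 in H1299. RFC3 was lowest in H1975 (8.30 ± 0.19, SD), next in A549 (9.85 ± 0.38) and highest in H1299 (11.04 ± 0.15), with every pair called. FAM111B was highest in H1975 (9.55 ± 0.43), next in H1299 (7.75 ± 0.46) and lowest in A549 (6.76 ± 0.22), again with every pair called.

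PCNA was at 12.28 ± 0.32 in A549 and 11.66 ± 0.17 in H1975, a difference that missed the threshold (adjusted p = 0.0736), and at 9.62 ± 0.47 in H1299, below both. FEN1 was at 11.07 ± 0.40 in H1975, 10.000 ± 0.58 in A549 and 8.99 ± 0.31 in H1299, with every pair called. EXO1 was at 8.90 ± 0.54, 8.21 ± 0.31 and 8.68 ± 0.28 in H1975, A549 and H1299, and none of its pairs was called. CHEK1 was at 11.99 ± 0.21 in H1975 and 12.002 ± 0.33 in H1299, a difference that missed the threshold (adjusted p = 0.973), and at 10.43 ± 0.16 in A549, below both. GINS3 showed the widest gap among the GINS genes, 2.99 ± 0.34 (adjusted p = 1.98e-08) for H1975 minus H1299. CLSPN was lower in A549 than in H1299 by 2.75 ± 0.41 (adjusted p = 2.48e-06) on the log2 scale.

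**Figure D5:**
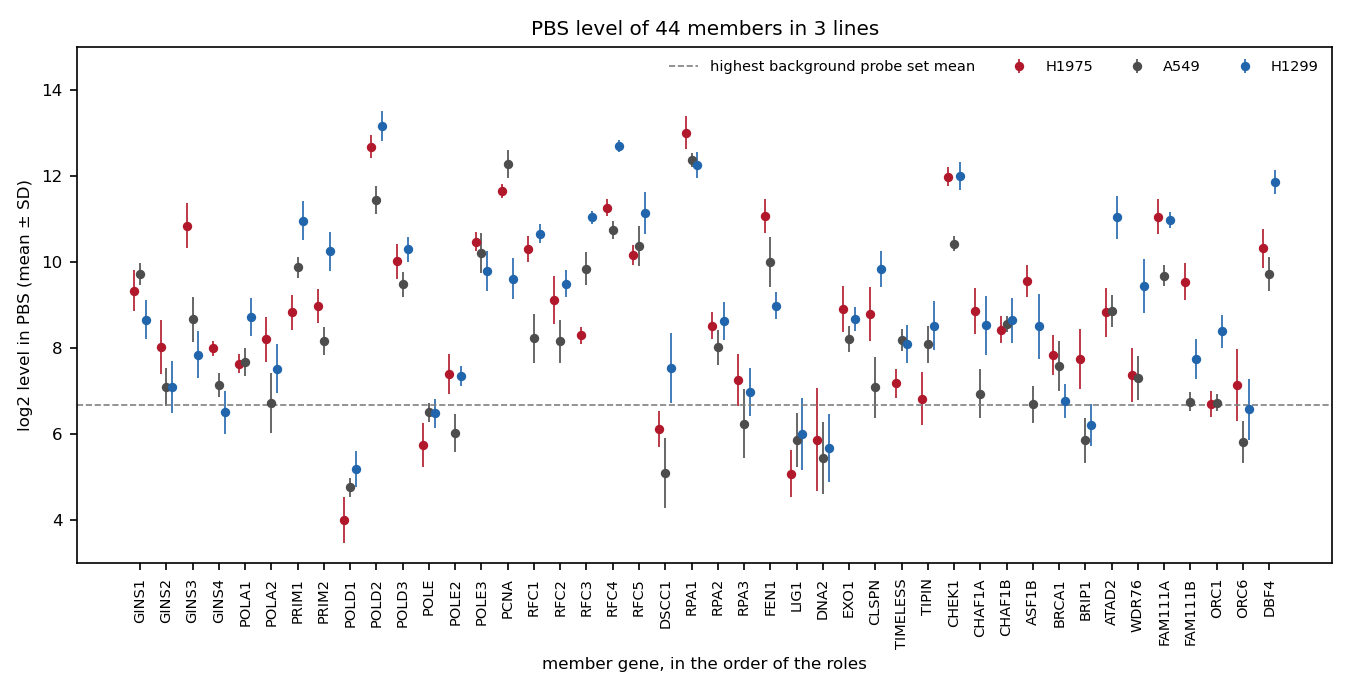
Log2 level in PBS arrays (y axis, mean with SD) of the 44 genes in H1975 (n = 4), A549 (n = 4) and H1299 (n = 5), in the order of the roles; the dashed line is the highest mean of a background probe set, 6.69. Levels are to be compared between lines for the same gene, as for RFC3 at 8.30, 9.85 and 11.04 in H1975, A549 and H1299.

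Genes next to the members in the same pathways were counted from lists that, like the members, were chosen with earlier results known. Over all genes 6.28% fell and 5.57% rose in H1975, 4.52% and 4.35% in H1299, and 0.277% and 0.916% in A549. At an unadjusted p under 0.05 the lower and higher shares were 11.7% and 10.7%, 9.72% and 9.67%, and 3.19% and 5.53% in that order. With the run as a block 9.85%, 8.17% and 1.13% fell, and 1658, 1367 and 303 of 17687 rose. Single calls in the shorter lists are not read as results about those lists. Of 21 helicase, licensing and firing genes measured, 10 fell in H1975 and 11 in H1299, and 0 rose in either. MCM3, a helicase subunit, fell by 2.24 ± 0.24 (adjusted p = 2.08e-07) and MCM10, which activates the helicase, fell by 1.95 ± 0.32 (adjusted p = 7.84e-05) in H1975. CDC45, the partner of GINS in the helicase, fell by 2.39 ± 0.28 (adjusted p = 9e-07) and the helicase subunit MCM6 fell by 2.22 ± 0.30 (adjusted p = 8.46e-06) in H1299. In A549 none of the 21 was called, and at an unadjusted p under 0.05, 2 were lower and 1 higher. In the fit that blocks on the run 11 fell and ORC3, of the origin recognition complex, rose in H1975 (0.96, adjusted p = 0.00129), and 14 fell in H1299.

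Of 6 genes of deoxynucleotide supply, 4 fell in H1975, 4 in H1299 and 1 in A549, and 0 rose. In A549, 2 were lower and 1 higher at an unadjusted p under 0.05, and the median log2 fold change of the list was 0.12. TYMS, which makes thymidylate, fell by 1.22 ± 0.20 (adjusted p = 7.75e-05) in H1975, fell by 0.91 ± 0.23 (adjusted p = 0.0402) in A549 and fell by 1.63 ± 0.19 (adjusted p = 8.22e-07) in H1299. TK1, thymidine kinase, fell by 1.59 ± 0.32 (adjusted p = 0.00087) in H1975 and fell by 1.74 ± 0.30 (adjusted p = 0.000239) in H1299. Among 20 recombination and Fanconi genes 3 fell in H1975, 8 in H1299 and 0 in A549 (1 at an unadjusted p under 0.05), and 0 rose. XRCC2, a gene of homologous recombination, fell by 1.62 ± 0.27 (adjusted p = 8.54e-05) in H1975 and fell by 1.96 ± 0.25 (adjusted p = 4.53e-06) in H1299. FANCL, the ligase subunit of the Fanconi core complex, fell by 1.38 ± 0.33 (adjusted p = 0.00429) in H1975. When the run was blocked 3, 1 and 12 of the 20 fell in H1975, A549 and H1299, and of the deoxynucleotide genes 4, 1 and 5.

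Of 14 further fork proteins, CHTF8, of the alternative loader that holds DSCC1, fell in H1975 (-0.78), RNASEH2A (-1.30), of the enzyme that removes ribonucleotides from DNA, and POLE4 (-1.03), of polymerase epsilon, fell in H1299, and none was called in A549, nor at an unadjusted p under 0.05. Of 8 genes around ATR, the phosphatase gene CDC25A fell in H1975 (-1.36) and H1299 (-0.97). WEE1, the kinase that opposes CDC25A, rose in H1975 by 1.22 ± 0.29 (adjusted p = 0.00405). None of the 8 was called in A549, nor at an unadjusted p under 0.05. Of 14 genes of base excision repair and end joining, XRCC1 rose in H1975 by 0.93 ± 0.20 (adjusted p = 0.0015) and in H1299 by 1.22 ± 0.18 (adjusted p = 4.91e-05). PARP1 fell in H1975 (-0.95), 3 genes with PRKDC (-0.96) and UNG (-1.31) fell in H1299, and none was called in A549, where 1 was lower at an unadjusted p under 0.05. Under the run block 2 of the further fork proteins fell in H1975, and 4 fell and 1 rose in H1299. Of the genes around ATR that block added 1 fall in H1299, and of the excision and joining genes it called 2 that fell and 2 that rose in H1975, and 5 that fell and 1 that rose in H1299.

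Of 12 genes of E2F factors and pocket proteins, 3 fell and 2 rose in H1975, 3 fell in H1299, and none was called in A549, where 1 was lower at an unadjusted p under 0.05. TFDP1, the dimer partner of E2F factors, fell by 1.09 ± 0.22 (adjusted p = 0.00104) in H1975 and fell by 0.92 ± 0.21 (adjusted p = 0.00396) in H1299. RBL1, a pocket protein gene, fell by 0.98 ± 0.22 (adjusted p = 0.00276) in H1975 and fell by 0.99 ± 0.21 (adjusted p = 0.00179) in H1299. When the run was blocked 4 of the 12 fell and 2 rose in H1975, and 3 fell and 1 rose in H1299. Of 18 genes of G2 and mitosis, none was called in H1975 or A549 and MKI67 alone fell in H1299 (-1.07). At an unadjusted p under 0.05 these were 0 lower and 2 higher in H1975, 1 lower and 1 higher in A549 and 3 lower in H1299. Of the 18, 11.1% were higher in H1975, near the 10.7% of all genes. The run block called more of the 18. BUB1 (0.98, adjusted p = 0.000188) and TPX2 (0.51, adjusted p = 0.0429), both of the spindle, rose in H1975. TPX2 fell in A549 (adjusted p = 0.0115) and 4 of the list fell in H1299. The median log2 fold change of the 18 was 0.14 in H1975, -0.29 in A549 and -0.28 in H1299.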

How the data were processed

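The values are the log2 expression values the authors deposited, made by RMA in Partek per the submitters' processing notes, which give no versions. The sources used here name no genome build or background step for the values. Of 24351 features 17709 had 1 gene symbol and 6642 had none; 20 genes had more than 1 probe set, none of them a member, and the probe set with the highest mean was kept, which left 17687 genes. Values ran from 1.35 to 19.91 and were not normalized again.

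One model with a mean for each of the 6 groups was fitted to all 26 arrays with limma 3.58.1 (lmFit and eBayes, R 4.3.3, statmod 1.5.0), with 20 degrees of freedom left for the residuals. Tests covered the Omomyc response in each line, its difference between lines with the moderated F test, and PBS levels between lines, with Benjamini-Hochberg adjustment over all genes at 0.05. The code was tested on simulated data. Labels call the arrays biological replicates without naming cultures, so p-values measure the spread between these arrays, which may be technical, and their number limits the precision.

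The normalization runs were read from the distribution of each array's values (means of 7.08 to 7.12, 7.3 to 7.36 and 6.94 to 6.99) and no label names them. Deviations of arrays with the same number correlated at 0.259 to 0.389 in the 5 pairs of H1299 and 0.109 to 0.196 in the 3 pairs of A549. Both arrays of each of these pairs lay in the same run. In H1975, where only some pairs shared a run, the correlations of the 4 pairs were -0.196 to 0.331. With the run removed these correlations were -0.148 to 0.046 in H1299, -0.189 to 0.008 in A549 and -0.256 to 0.082 in H1975. Beyond the shared run, they gave no sign that the numbers pair.

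The members and the other gene lists were chosen with earlier results of these data known. Values of every array are given for the 6 members with the smallest p in each line and, in all 3 lines, for the 5 with the smallest p of the F test; of each other list at most 2 called genes per line are named, those with the smallest p. Alternatives were quantile normalization, centring, a 30th percentile filter, the mean over probe sets, trend and robust moderation, the replicate number or run as a block, each line or run alone, and leaving out each array. Promoter sequences are from RefSeq (GRCh38.p14).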

Additional observations from a re-analysis of the deposited data

Results flagged for a closer look

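Within the groups of 4 or 5 arrays, 14 of 220 group values had 1 array far from the others by Dixon's criterion, which by chance marks about 1 in 20 groups. In H1975, Omomyc replicate 5 was low for RFC3 (7.764, others 8.189 to 8.317) and for TIMELESS (5.338, others 6.601 to 6.931). PBS replicate 3 of H1975 was high for POLA1 (7.969, others 7.497 to 7.571) and BRIP1 (8.786, others 7.331 to 7.501), and PBS replicate 4 was low for POLE3 (10.14, others 10.56 to 10.635). In A549, PBS replicate 4 was low for FEN1 (9.131, others 10.265 to 10.304), PRIM1 (9.501, others 9.97 to 10.026) and ORC6 (5.089, others 5.953 to 6.128), and PBS replicate 1 was high for PCNA (12.76, others 12.119 to 12.123). The arrays that were low in H1975 and A549 were each the only array of their group in run 3. The chance rate takes no account of the runs. In H1299, Omomyc replicate 2 was high for CHAF1A (8.211, others 7.421 to 7.515) and ATAD2 (11.629, others 10.353 to 10.607), and Omomyc replicate 1 was high for POLE2 (6.891, others 6.241 to 6.379). PBS replicate 5 of H1299 was low for POLE (5.902, others 6.524 to 6.775) and PBS replicate 2 was low for FAM111B (6.96, others 7.827 to 8.17).

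The response to Omomyc differed between the 3 lines by the moderated F test of limma for 9 members. The adjusted p was 1.02e-05 for FAM111B, 0.00139 for RFC3, 0.00265 for FAM111A, 0.00313 for FEN1 and 0.00322 for POLD2. It was 0.0089 for GINS4, 0.0159 for EXO1, 0.0373 for ASF1B and 0.0429 for POLA1.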

How the results depend on the processing

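No called member changed sign under any alternative run, and 0 members rose in any of them. The number of members that fell was 15 to 20 in H1975 and 23 to 30 in H1299 over the alternatives that used all arrays of a line, and 9 to 14 and 0 to 18 within single runs. In A549, 1 member (POLE) fell with quantile normalization and with centring, and 3 with the run as a block. Of the 41 called values, 34 lost the call in at least 1 alternative, single runs included; 13 members in H1975 and 19 in H1299 kept it in every fit that left out 1 array. Leaving out 1 array gave 13 to 18 members in H1975, 20 to 25 in H1299 and 0 in A549, with 1627 to 2112, 1272 to 1460 and 128 to 188 genes called.

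Counts over all genes moved with several settings. With the run as a block 3400 genes were called in H1975, 502 in A549 and 2812 in H1299, and 3073 genes and 16 members differed between the lines. Quantile normalization gave 352 genes in A549, split as 233 higher and 119 lower against 162 and 49 as reported, and 2340 genes that differed between lines. Centring gave 1557 higher and 1028 lower in H1975, against 985 and 1110 as reported, with the median over all genes at 0.12 and that of the members at -0.45. A549 fitted alone gave 81 genes. Runs 1, 2 and 3 alone gave 1018, 1047 and 780 genes in H1975, with 9 members in run 2. Runs 1 and 2 alone gave 50 and 44 genes in A549 and 81 and 523 in H1299, with 0 members in run 1 of H1299, which held 1 array of each group, each assumed to vary like the other groups. The replicate block gave 2585, 226 and 2239 genes in H1975, A549 and H1299. The cause of these moves was not tested beyond the fewer arrays in single runs and lines. Fold changes of members whose lower mean was no higher than 6.69 are uncertain in size.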
